A study of Mus musculus with 30 samples.

Results

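Juvenile mouse lungs that had received inhaled endotoxin followed by mechanical ventilation (LPS+MV) were compared with untreated juvenile lungs. The 7 arrays of this comparison, 3 of LPS+MV and 4 of controls, were taken by their titles from 30 arrays of the series, and each held RNA of 1 C57BL/6 mouse lung sample. Both groups were 21 days old. In the LPS+MV group, lipopolysaccharide (LPS) of E. coli serotype 0111:B4 was nebulised into a closed chamber over 30 min (0.1 mg/mL, 20 mL in all), and ventilation followed directly. The ventilator gave 15 mL/kg at 80 breaths/min with 30% oxygen and an end-expiratory pressure of 2 cm H2O for 2 h. Control mice had neither aerosol nor ventilator and breathed spontaneously, with no stated waiting period. The effects of LPS, of ventilation and of the time in the study therefore cannot be told apart in this comparison, and juvenile LPS alone (4 arrays, spontaneous breathing with food and water for 2 h after the aerosol), juvenile ventilation alone (MV, 3 arrays, no aerosol) and the same treatment in 16-week-old adults (4 LPS+MV and 4 control arrays) are set beside it further on.

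LPS is the outer-membrane glycolipid of Gram-negative bacteria. With the help of CD14 and MD-2 it activates Toll-like receptor 4, whose MyD88 branch leads to NF-kB and cytokine and chemokine genes and whose TRIF branch leads to interferon and the genes that interferon induces. In the lung, epithelium, macrophages and endothelium all answer, neutrophils are drawn from the blood into the airspaces, and cyclic stretch of a ventilated lung adds growth factor signalling and early response genes of its own.

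Levels are given as the deposited intensity of a probe set, in arbitrary units that compare arrays for 1 gene but not different genes. Differences are log2 changes of intensity plus 32, LPS+MV minus control, with standard errors and with p-values of the limma fit adjusted over all genes by the Benjamini-Hochberg method. A change passed at an adjusted p below 0.05. These are whole-lung samples, so a change in the number of cells of a type and a change in the RNA per cell cannot be told apart. Lung markers were strong on all 7 arrays: the surfactant gene Sftpc averaged 20400.0 ± 580.3 in controls (SD, n = 4) and 19150.0 ± 1103 in LPS+MV lungs (SD, n = 3), and the club cell secretoglobin Scgb1a1 averaged 18200.0 ± 1155 and 18260.0 ± 899.9.

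One LPS+MV array stood apart. Replicate 3 correlated at 0.980 and 0.982 with replicates 1 and 2, which correlated with each other at 0.996, across genes on the log2 scale. It lay at least 1 log2 unit above the mean of replicates 1 and 2 in 88 genes and at least 1 below in 25, whereas replicates 1 and 2 differed by that much in 6 genes. Heat shock chaperones and immediate early genes were high on it. Results that rest on it are given with and without it. Xist, the transcript of the inactive X chromosome, was above an intensity of 100 on 1 of 4 control and 2 of 3 LPS+MV arrays. With the Xist pattern as a term in the fit, 3498 genes passed instead of the 4099 reported next.

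In all, 4099 of 13089 genes (31.3%) passed: 1416 (10.8%) were higher and 2683 (20.5%) lower in LPS+MV lungs. The higher genes changed by more, with 301 at least 2-fold higher and 38 at least 2-fold lower. The median over all genes was -0.05. Without replicate 3 of LPS+MV, 3388 genes passed, of which 3035 were among the 4099, all with the same sign. The groups did not overlap in 4219 genes (32.2%), among them 3350 of those that passed. For scale, the lists of genes described next are read against 10.8% higher and 20.5% lower. They hold 610 genes in 36 lists, of which 539 were bright enough to be tested.

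The 15 genes that rose most were chemokines (Cxcl10, Cxcl1, Cxcl2, Cxcl5, Ccl2 and Ccl20), cytokines (Il6 and Il1b), the acute phase protein Saa3, the LPS co-receptor Cd14, the oxysterol-forming enzyme Ch25h, the metallothionein Mt2, the interferon-induced Ifit1, the cytokine feedback inhibitor Socs3 and the unnamed transcript G530011O06Rik. Cxcl10, a ligand of the chemokine receptor CXCR3 on T cells, led them. It read 23.1, 16.2, 19.3 and 19.3 on the control arrays and 3781, 5499 and 3764 on the LPS+MV arrays, a log2 change of 6.39 ± 0.24 (adjusted p = 2.33e-17). Every LPS+MV array was far above every control array. Cxcl1, a neutrophil attractant that acts through CXCR2, read 12.4, 10.8, 20.9 and 13.4 in controls and 1454, 2345 and 2802 in LPS+MV lungs, a change of 5.54 ± 0.21 (adjusted p = 2.33e-17). Its other probe sets rose less, by 1.58 to 4.56. All 25 genes named as highest or lowest kept their calls when any 1 array was left out and in the other fits tried. These 25 were taken from genes that passed with groups that did not overlap. The separation stated for them here and further on was therefore fixed by that choice.

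**Figure D1:**
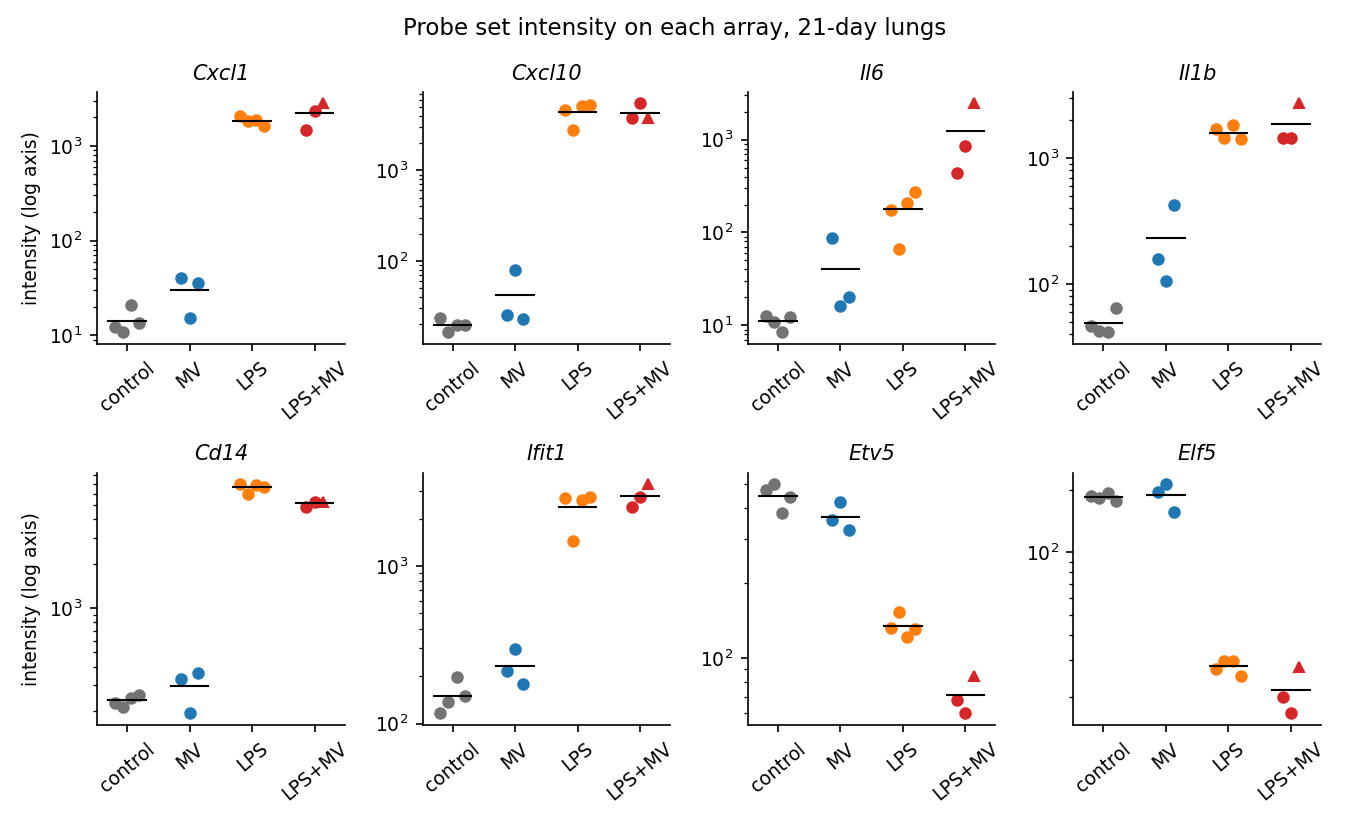
Intensity (arbitrary units, log axis) of 8 genes on each juvenile array, by group: control, MV, LPS and LPS+MV. Points are arrays, a triangle marks LPS+MV replicate 3 and the line is the group mean. Cxcl1, Cxcl10, Il6, Il1b, Cd14 and Ifit1 lie above the control arrays on all 3 LPS+MV arrays, and Etv5 and Elf5 lie below them.

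The promoters of Cxcl1, Cxcl2, Cxcl10 and Ifit1 are printed to show the letters that NF-kB and interferon-regulated factors are known to read, since these genes moved together. Each line gives the 250 bases before the RefSeq start on the gene's own strand (GRCm38.p6), at chr5:90890995-90891244 (plus strand), chr5:90903649-90903898 (plus), chr5:92348890-92349139 (minus) and chr19:34640639-34640888 (plus). Capitals mark a match, on either strand, to kappa B (GGG, any pair of bases, then TTTCC) or to the interferon-stimulated response element (ISRE: GAAA, any pair of bases, then GAAA).
Cxcl1: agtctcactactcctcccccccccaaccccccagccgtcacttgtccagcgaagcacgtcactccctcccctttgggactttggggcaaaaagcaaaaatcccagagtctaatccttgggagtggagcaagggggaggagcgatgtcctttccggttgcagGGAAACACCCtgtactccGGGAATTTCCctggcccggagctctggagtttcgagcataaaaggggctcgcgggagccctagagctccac
Cxcl2: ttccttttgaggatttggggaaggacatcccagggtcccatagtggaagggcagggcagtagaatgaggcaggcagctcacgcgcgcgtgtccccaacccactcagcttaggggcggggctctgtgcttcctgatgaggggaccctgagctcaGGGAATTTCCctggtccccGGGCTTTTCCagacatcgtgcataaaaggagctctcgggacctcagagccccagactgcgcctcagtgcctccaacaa
Cxcl10: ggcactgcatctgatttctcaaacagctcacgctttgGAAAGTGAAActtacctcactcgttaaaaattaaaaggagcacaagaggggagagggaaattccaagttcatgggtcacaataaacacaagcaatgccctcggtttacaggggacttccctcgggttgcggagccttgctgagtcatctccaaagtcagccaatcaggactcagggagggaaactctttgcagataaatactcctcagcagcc
Ifit1: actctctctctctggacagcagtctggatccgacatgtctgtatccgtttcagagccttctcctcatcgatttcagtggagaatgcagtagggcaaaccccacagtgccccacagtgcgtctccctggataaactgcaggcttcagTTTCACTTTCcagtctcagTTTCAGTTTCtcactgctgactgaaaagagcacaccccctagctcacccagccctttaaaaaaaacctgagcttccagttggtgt
By these spellings, Cxcl1 and Cxcl2 hold 2 kappa B matches each, Cxcl10 holds 1 ISRE match and Ifit1 holds 2. A promoter was in the RefSeq table for 10528 of the tested genes. Of these, 1.79% hold a kappa B match and 3.14% an ISRE match in the 250 bases before the start. Among 12 of the 15 highest genes with a promoter, 4 hold a kappa B match (33.3%) and 3 an ISRE match (25.0%). In the list of interferon-stimulated genes an ISRE match was found in 10 of 22 promoters (45.5%), and a kappa B match in none. Of the 7 promoters among the 10 lowest genes, none holds either motif. Only these spellings were searched, so sites with other letters were neither marked nor counted. A promoter without a match may still hold such a site. A match describes letters and does not show that a factor binds there.

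The receptor side of LPS sensing rose in part. Of 18 tested genes of 20 listed, 10 rose and none fell, with a median of 0.36. Cd14, which hands LPS to the receptor complex, read 227, 213, 247 and 257 in controls and 4866, 5292 and 5252 in LPS+MV lungs, a change of 4.27 ± 0.12 (adjusted p = 7.96e-20). The lipopeptide receptor Tlr2 read 124, 106, 98.4 and 102 in controls and 1271, 1204 and 1142 after LPS+MV, a change of 3.15 ± 0.13 (adjusted p = 9.07e-17). For both, the lowest LPS+MV array exceeded the highest control array. The adaptor Myd88 rose by 1.56 and the inhibitory kinase relative Irak3 by 0.90, while the LPS receptor Tlr4 itself and its partner Ly96 (MD-2) rose by only 0.52 and 0.57. Ticam1 (TRIF) changed by 0.17 and did not pass.

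All 16 tested NF-kB genes rose, with a median of 1.87. Tnfaip3, Tnfaip2 and Zfp36 rose most. Tnfaip3 (A20), an enzyme that removes activating ubiquitin chains, read 131, 137, 113 and 156 in controls and 1969, 2293 and 2451 in LPS+MV lungs, a change of 3.77 ± 0.15 (adjusted p = 5.57e-17). Zfp36 (tristetraprolin), which destabilises cytokine mRNA, changed by 3.32 ± 0.26 (adjusted p = 1.52e-10), from 223, 252, 176 and 439.8 to 1983, 2456 and 4857. Replicate 3 read highest for Zfp36, and the groups did not overlap for either gene. Among subunits, Relb rose by 2.21, Nfkb2 by 1.68, Rela by 1.30 and Rel by 1.01. The inhibitors Nfkbie, Nfkbia and Nfkbib rose by 2.25, 1.31 and 1.30, although the second probe set of Nfkbib changed by only 0.06.

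Neutrophil-attracting chemokines of the inducible kind rose together. Cxcl1, Cxcl2, Cxcl3 and Cxcl5 rose by 3.61 to 5.54, and they make up all 4 of the list's 7 genes that rose. Cxcl2 read 13.5, 6.79, 10.4 and 10.2 in controls and 1178, 1656 and 1810.0 in LPS+MV lungs, a change of 5.21 ± 0.20 (adjusted p = 2.33e-17). The epithelial chemokine Cxcl5 read 9.32, 7.86, 11.6 and 7.07 in controls and 758, 834 and 594 after LPS+MV, a change of 4.20 ± 0.19 (adjusted p = 1.35e-15). Neither gene had an overlap between groups. Cxcl15 (lungkine), a chemokine of resting lung epithelium, fell by 0.21, but the call was lost without replicate 3 of LPS+MV (-0.08, adjusted p = 0.44) and without control replicates 1, 3 or 4 (-0.19 to -0.21). The platelet chemokines Ppbp and Pf4 changed by -0.60 and -0.31 and did not pass.

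Of 21 other chemokines tested, 17 rose and 1 fell, with a median of 1.88. Ccl2, the main attractant of CCR2-bearing monocytes, read 30.4, 24.8, 26.1 and 25.6 in controls and 726, 998 and 1277 in LPS+MV lungs, a change of 4.10 ± 0.24 (adjusted p = 3.02e-13). Ccl20, which attracts CCR6-bearing cells, read 25.8, 21.5, 24.9 and 20.8 in controls and 798, 1034 and 879.6 after LPS+MV, a change of 4.08 ± 0.12 (adjusted p = 2.08e-19). Both were higher on every LPS+MV array than on any control array. The macrophage inflammatory proteins Ccl3 and Ccl4 rose by 3.28 and 2.68, and the CCR4 ligands Ccl17 and Ccl22 by 2.66 and 1.88. Cxcl9, another CXCR3 ligand, rose by 2.24. Cxcl12, a homeostatic chemokine of stroma and endothelium, was the 1 that fell, with a change of -0.41 that did not pass without replicate 3 of LPS+MV (-0.28, adjusted p = 0.17) or without control replicate 2 or 4 (-0.39 and -0.36).

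Among 17 tested cytokines of 28 listed, 15 rose and none fell, with a median of 1.47. Il6 read 12.5, 10.9, 8.40 and 12.3 in controls and 439.6, 854 and 2462 in LPS+MV lungs, a change of 4.56 ± 0.40 (adjusted p = 8.79e-10). The LPS+MV arrays differed among themselves by several fold and replicate 3 was highest, but the lowest of them was far above the controls. Il1b read 47.0, 42.2, 41.6 and 65.2 in controls and 1454, 1443 and 2713 after LPS+MV, a change of 4.50 ± 0.35 (adjusted p = 8.21e-11). Also higher were the granulocyte-macrophage factor Csf2 (2.92), the T cell costimulator Tnfsf9 (3.11), the macrophage factor Csf1 (2.38), the IL-1 antagonist Il1rn (1.85) and the granulocyte factor Csf3 (1.47). Tnf, an early cytokine of the LPS response, rose by 1.10. Il18 changed by 0.11 and did not pass. Listed cytokines that were too dim to test included interferon beta (Ifnb1), at 13.8 to 21.9 on the 7 arrays, and Il10, at 6.67 to 8.42. The 15 of 17 therefore covers only cytokines that were bright on some arrays, and Il6 was dim on all controls.

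Cytokine receptors and feedback genes rose too, with 17 of 22 higher, none lower and a median of 0.66. Socs3, the inhibitor of IL-6 family signalling, read 113, 124, 144 and 182 in controls and 1736, 2011 and 3835 in LPS+MV lungs, a change of 3.81 ± 0.32 (adjusted p = 3.64e-10). The decoy receptor Il1r2 rose by 2.06, the oncostatin M receptor Osmr by 2.03, the TNF receptor Tnfrsf1b by 1.75 and the shared beta chain Csf2rb by 1.48. The IL-6 receptor alpha chain Il6ra changed by 0.00 and did not pass.

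Of the 36 lists, the interferon-stimulated genes had the highest count of members that rose, but not the highest share. The share was higher among NF-kB genes (16 of 16) and neutrophil markers (14 of 14). Of 28 tested genes of 31 listed, 23 rose and none fell, with a median of 1.04. Ifit1, which binds foreign RNA ends, read 116, 137, 198 and 149 in controls and 2358, 2732 and 3292 in LPS+MV lungs, a change of 3.96 ± 0.22 (adjusted p = 6.25e-14). The interferon-inducible GTPase gene Iigp1 read 342, 308, 556 and 208 in controls and 2755, 3368 and 2712 after LPS+MV, a change of 3.02 ± 0.36 (adjusted p = 3.09e-07). Both were separate between the groups. Irf1, a transcription factor of the interferon response, rose by 2.16, and Irgm1, Gbp2 and Ifi47, all interferon-inducible GTPases, rose by 2.16, 2.04 and 2.02. Rsad2 and Oas1a changed by 0.45 and 0.41 and did not pass.

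Acute phase and antimicrobial genes rose in 14 of 17 cases, with none lower and a median of 1.32. Saa3, the serum amyloid made outside the liver, read 62.2, 46.3, 109 and 55.3 in controls and 3875, 4500.0 and 2393 in LPS+MV lungs, a change of 5.16 ± 0.33 (adjusted p = 1.18e-12). Steap4, a metalloreductase, read 84.7, 68.1, 108 and 58.9 in controls and 1305, 1576 and 1198 after LPS+MV, a change of 3.65 ± 0.23 (adjusted p = 8.68e-13). The lowest LPS+MV array was above the highest control for both. Saa1 rose by 3.07, the pentraxin Ptx3 by 2.75 and the iron-sequestering Lcn2 by 2.19. Nos2, the inducible nitric oxide synthase, changed by 0.08 and did not pass.

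Metal and redox genes moved with them. The metal-binding proteins Mt2 and Mt1 changed by 4.28 ± 0.27 (adjusted p = 1.42e-12) and 3.34 ± 0.25 (adjusted p = 6.35e-11). Mt2 read 166, 236, 141 and 369.7 in controls and 4076, 5416 and 4897 in LPS+MV lungs, with no overlap. The zinc importer Slc39a14 rose by 1.46, and its other probe sets by 0.28 to 0.56. The remaining 3 tested members of that list, the zinc transporters Slc30a1, Slc39a8 and Slc30a4, changed by -0.06, -0.03 and 0.05 and did not pass, and the second probe sets of Slc30a1 and Slc39a8 were at 0.12 and 0.24. Among antioxidant and oxidase genes 12 of 18 rose and 1 fell, with a median of 0.78. The one that fell was the glutathione peroxidase Gpx1 (-0.24), which did not pass without LPS+MV replicate 2 or 3 or control replicates 2 to 4 (-0.16 to -0.27). Gclc, the catalytic subunit of glutathione synthesis, read 653, 597, 895 and 1071 in controls and 3759, 4197 and 4438 in LPS+MV lungs, a change of 2.35 ± 0.17 (adjusted p = 1.42e-11). Its partner subunit Gclm changed by 0.05 and the quinone reductase Nqo1 by 0.08, and neither passed. The mitochondrial superoxide dismutase Sod2 rose by 1.78 and the phagocyte oxidase subunits Cybb and Ncf1 by 1.48 and 1.36.

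**Figure D2:**
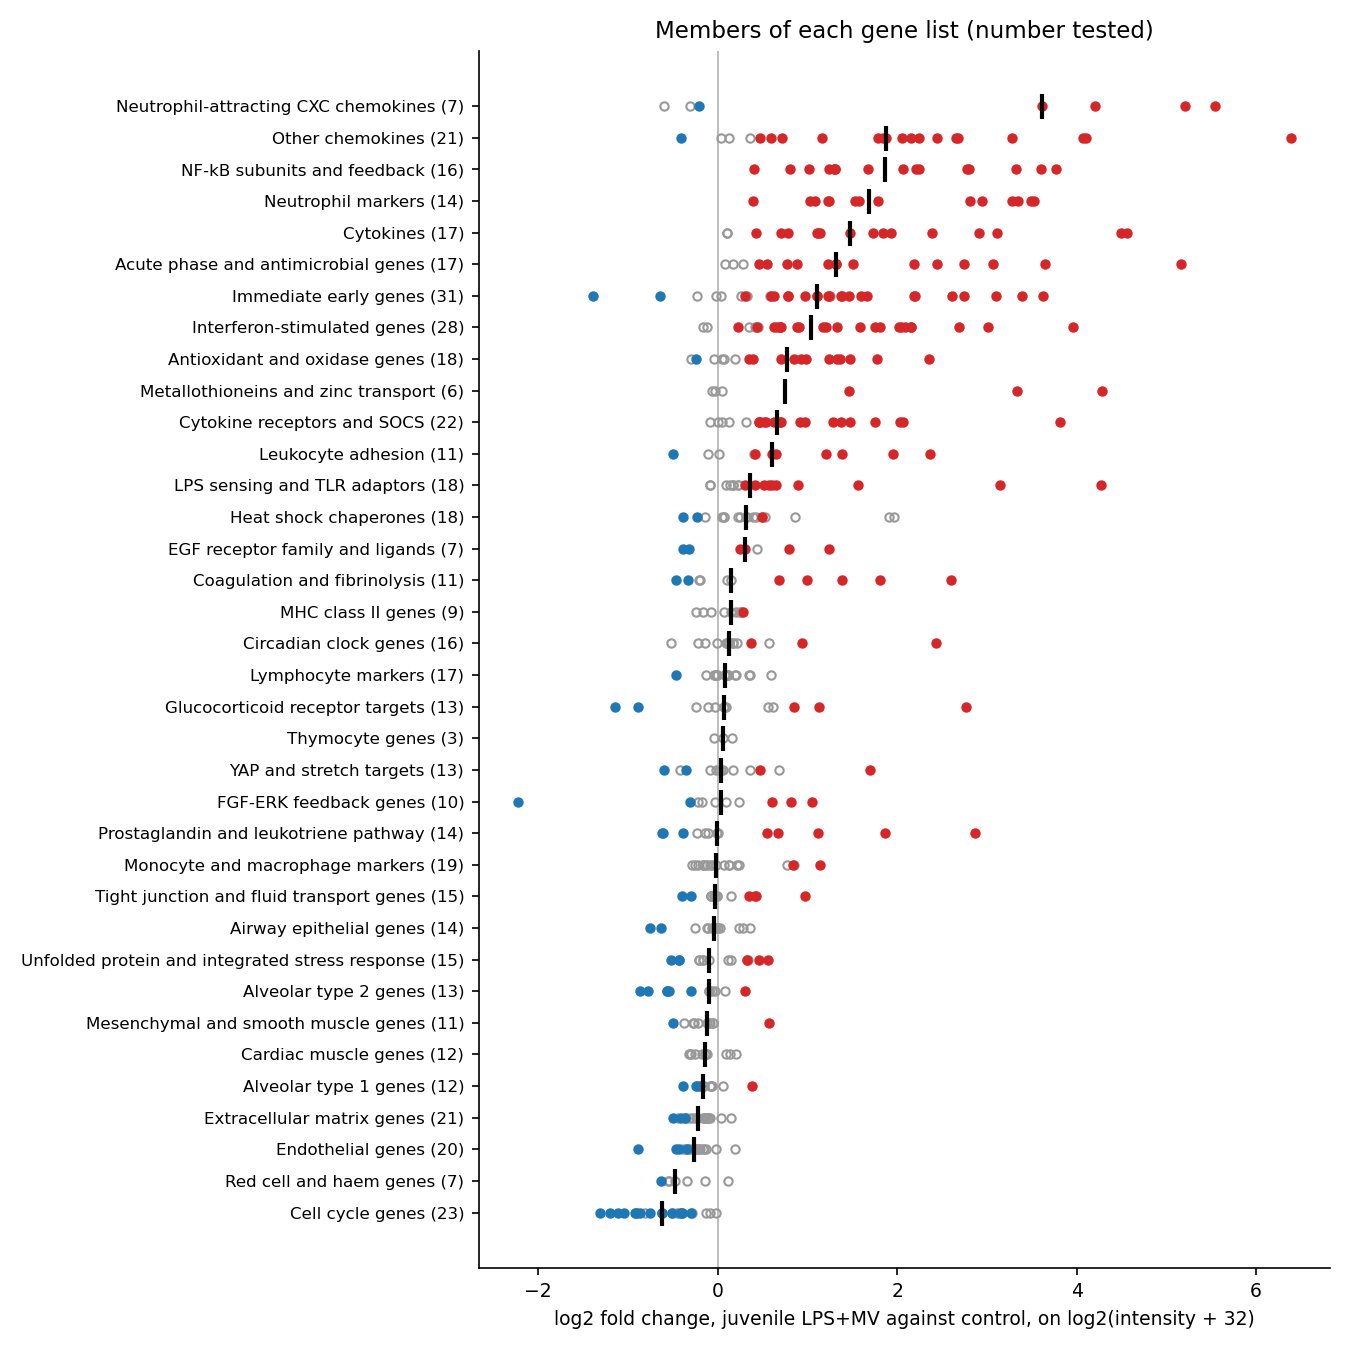
Log2 change of LPS+MV against juvenile control for each tested member of the 36 lists. Filled red points passed as higher, filled blue points passed as lower, open grey points did not pass, and the black bar is the list's median. All 16 tested NF-kB genes and all 14 tested neutrophil markers are red, and the 15 cell cycle genes that passed are blue.

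Adhesion molecules that capture leukocytes on the vessel wall were higher. Selp (P-selectin) read 29.9, 19.8, 27.4 and 23.9 in controls and 179, 299 and 331 in LPS+MV lungs, a change of 2.36 ± 0.18 (adjusted p = 4.09e-11), although its second probe set changed by only 0.33. Icam1, the ligand of leukocyte beta-2 integrins, read 1506, 1409, 1299 and 1490.0 in controls and 4935, 5851 and 6085 after LPS+MV, a change of 1.95 ± 0.10 (adjusted p = 1.01e-14). Both were separate between groups. Vcam1 and Sele rose by 1.38 and 1.20, and Icam2, which resting endothelium carries, fell by 0.50. In the list, 7 of 11 rose and 1 fell (median 0.61). The count of higher genes was 4 without LPS+MV replicate 1 or 2 or without control replicate 1 or 2.

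All 14 tested neutrophil markers of 19 listed were higher in LPS+MV lungs, with a median of 1.68. The mean level of the list was 6.89, 6.89, 7.22 and 7.50 on the control arrays and 9.27, 9.14 and 9.22 on the LPS+MV arrays, on the log2 scale. S100a9, a calprotectin subunit of neutrophils, read 314, 356, 826 and 1434 in controls and 6592, 6467 and 6362 after LPS+MV, a change of 3.34 ± 0.58 (adjusted p = 7.13e-05). Clec4d, a C-type lectin receptor of myeloid cells, read 26.3, 37.6, 55.9 and 95.5 in controls and 842, 954 and 877 after LPS+MV, a change of 3.49 ± 0.38 (adjusted p = 5.02e-08). The receptors Csf3r and Cxcr2 rose by 1.23 and 1.03, the latter call being lost without LPS+MV replicate 2 (0.85, adjusted p = 0.1). The primary granule genes of immature neutrophils, Elane and Mpo, were too dim to test, at 13.7 to 18.6 and 14.7 to 21.2 on the 7 arrays. The part of this shift in the changes of the inflammatory genes was not tested.

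Markers of other leukocytes passed no more often than all genes did, of which 10.8% were higher and 20.5% lower. Of 19 monocyte and macrophage markers 2 rose, the scavenger receptors Msr1 (1.14) and Marco (0.84), and the median was -0.02. The macrophage genes Adgre1, Cd68 and C1qa changed by 0.23, 0.22 and -0.06 and did not pass. Of 17 lymphocyte markers 1 fell, Cd2 with a change of -0.46, and the median was 0.08. The means of the lists by array are in the plot of list levels.

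**Figure D3:**
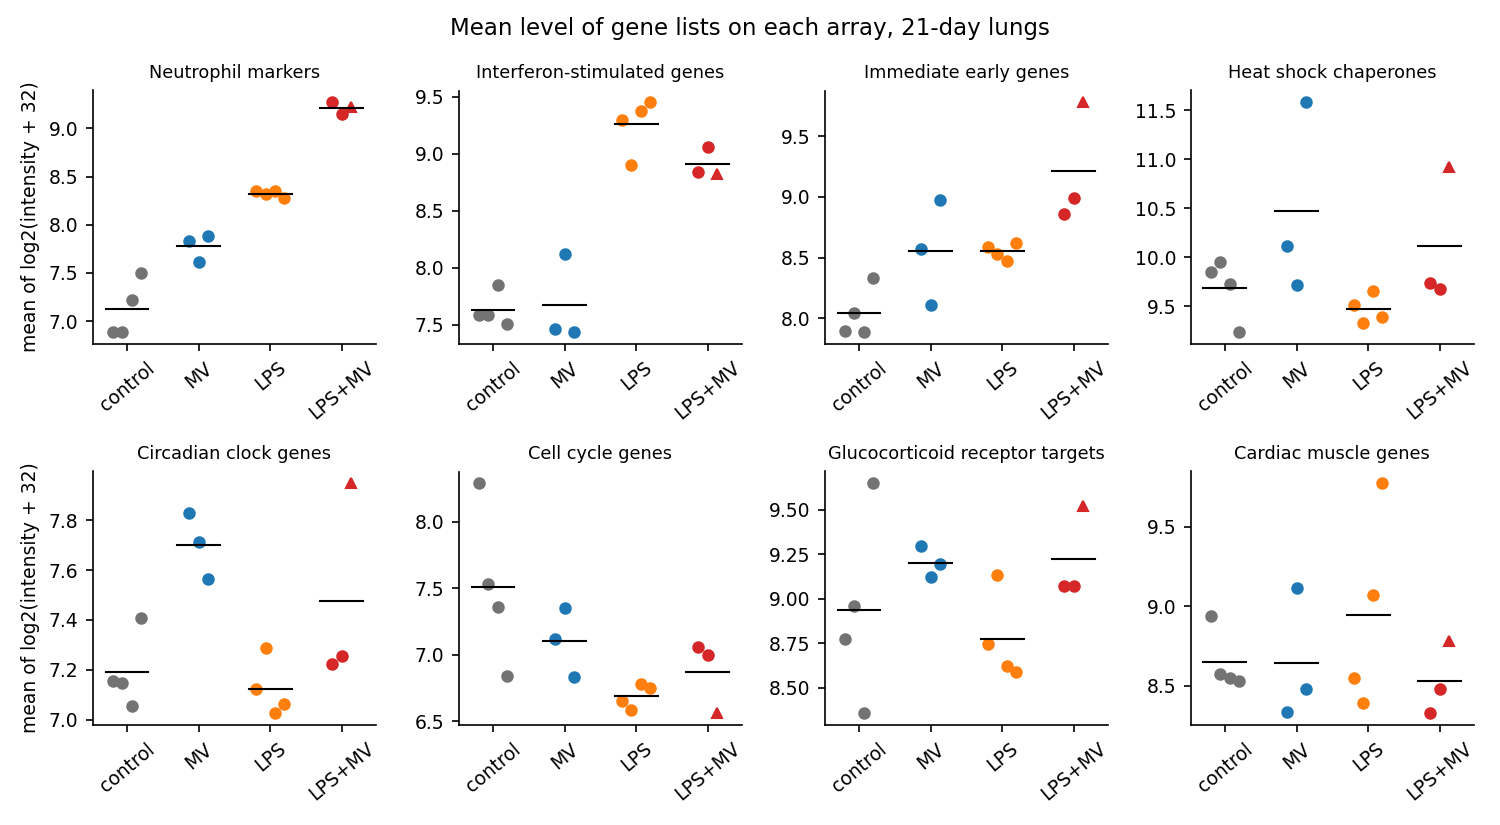
Mean log2(intensity + 32) of the tested members of 8 lists on each juvenile array (control, MV, LPS, LPS+MV), with a triangle for LPS+MV replicate 3 and a line at the group mean. The neutrophil marker mean is 9.14 to 9.27 on the LPS+MV arrays against 6.89 to 7.50 on the controls, while the heat shock mean is 10.92 on replicate 3 against 9.74 and 9.67 on replicates 1 and 2.

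Genes of clotting and of prostaglandin and leukotriene synthesis gave calls in both directions. F3 (tissue factor), which starts coagulation, read 170.2, 123, 163 and 289.7 in controls and 435, 585 and 547 in LPS+MV lungs, a change of 1.39 ± 0.17 (adjusted p = 3.27e-07). The urokinase receptor Plaur rose by 1.81 and the matricellular protein Thbs1 by 2.60, whereas thrombomodulin (Thbd), an endothelial anticoagulant, fell by 0.47, and the plasminogen-binding Anxa2 by 0.33. The protein C receptor Procr rose by 0.69, or 0.37 without LPS+MV replicate 3, and coagulation factor X (F10) read 42.2, 48.2, 50.7 and 56.1 in controls and 125, 116 and 151 in LPS+MV lungs (adjusted p = 5.28e-05). In that list 5 of 11 rose and 2 fell (median 0.15). Ptgs2 (cyclooxygenase-2) read 59.3, 41.3, 77.8 and 37.5 in controls and 359.8, 541 and 1010.0 after LPS+MV, a change of 2.87 ± 0.48 (adjusted p = 4.15e-05). Replicate 3 was highest and the groups did not overlap. The prostaglandin E synthase Ptges and the receptor Ptger4 rose by 1.12 and 1.86, while Hpgd, which breaks prostaglandins down, and the receptor Ptger2 fell by 0.61 each. The prostacyclin receptor Ptgir rose by 0.55 and the leukotriene pathway gave 1 call each way, Alox5ap at 0.68 and Ltc4s at -0.38. Alox5ap did not pass without any 1 of the LPS+MV arrays (0.61 to 0.74) or control replicates 1, 2 or 4 (0.64 to 0.67), and Ltc4s did not pass without LPS+MV replicate 2 (-0.30). Of 14 genes 5 rose and 3 fell (median -0.01).

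Immediate early genes rose in 22 of 31 cases and fell in 2, with a median of 1.11 that was 0.81 without replicate 3 of LPS+MV. Egr1, a zinc finger factor, read 144, 119, 133 and 156 in controls and 1474, 1684 and 3508 in LPS+MV lungs, a change of 3.62 ± 0.45 (adjusted p = 5.85e-07). Junb read 52.8, 57.1, 56.2 and 80.4 in controls and 623, 721 and 1848 after LPS+MV, a change of 3.39 ± 0.28 (adjusted p = 3.57e-10). Both were above the controls on all 3 LPS+MV arrays and highest on replicate 3. Nr4a1, an orphan nuclear receptor, read 166, 156, 123 and 302 in controls and 207, 247 and 1852 after LPS+MV, and its change of 1.26 ± 0.56 (adjusted p = 0.091) did not pass. Only replicate 3 was above the highest control for this gene. The 2 that fell were the flow-responsive factors Klf2 (-1.39) and Klf4 (-0.65), the latter not passing without LPS+MV replicate 1 or 2 (-0.55 and -0.52) or control replicate 2 or 4 (-0.58 and -0.54). Of 13 targets of the stretch-sensitive YAP pathway, 2 were higher (Ccn1 at 1.70 and Crim1 at 0.48) and 2 lower (Edn1 at -0.59 and Ajuba at -0.36), with a median of 0.03. Over all genes the shares were 10.8% higher and 20.5% lower. The EGF receptor ligand Hbegf rose by 1.24, and the receptor chains Erbb2 and Erbb3 changed by -0.31 and -0.38, which passed with all arrays. Without LPS+MV replicate 1 neither passed (-0.27 and -0.30), and Erbb3 did not pass without LPS+MV replicate 2 (-0.31).

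Heat shock genes were high on 1 LPS+MV array. Hspa1a, an inducible HSP70 gene, read 138, 234, 124 and 54.4 in controls and 257, 239 and 2915 in LPS+MV lungs, and its change of 1.96 ± 0.89 (adjusted p = 0.096) did not pass. In the list 1 of 18 rose (Hspb8, 0.49) and 2 fell (Cryab, -0.23, and Serpinh1, -0.38). Without replicate 3 none of these passed and the median moved from 0.32 to -0.08, and these calls were also lost without control replicate 1, 2 or 3 (Hspb8 at 0.46 to 0.47, Cryab at -0.19 to -0.22, Serpinh1 at -0.34 to -0.38) and that of Cryab without LPS+MV replicate 2 (-0.18). Clock genes also rested on that array, with 3 of 16 higher, none lower and a median of 0.12, against 1 higher, 1 lower and -0.03 without replicate 3. The calls lost without it were Nfil3 (0.94, then 0.81) and Rora (0.37, then 0.25), the latter also being lost without LPS+MV replicate 2 (0.42) or control replicates 1 to 3 (0.29 to 0.37). Bhlhe40, a repressor that clock and inflammatory signals both induce, had the largest change at 2.44.

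**Figure D4:**
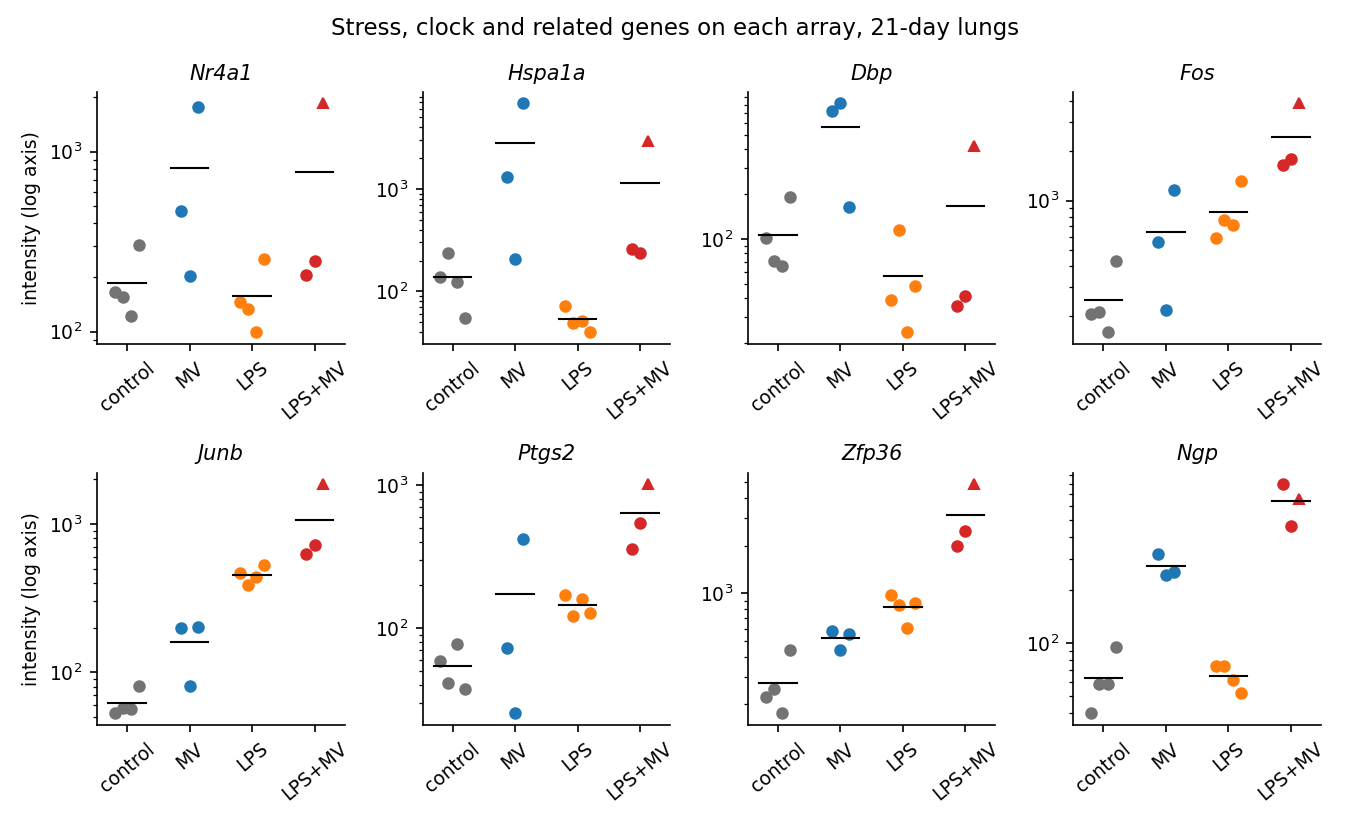
Intensity (arbitrary units, log axis) of 8 genes on each juvenile array, by group (control, MV, LPS, LPS+MV), with a triangle for LPS+MV replicate 3 and a line at the group mean. Replicate 3 is the highest LPS+MV array for Hspa1a, Nr4a1, Fos, Junb, Ptgs2 and Zfp36, and the highest MV arrays reach 6849 for Hspa1a and 1766 for Nr4a1.

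The genes that fell did so by less. Etv5, an ETS factor downstream of FGF receptors that alveolar type 2 cells depend on, read 473, 499.5, 383 and 445 in controls and 67.5, 59.9 and 85.0 in LPS+MV lungs, a change of -2.23 ± 0.10 (adjusted p = 5.31e-16). Elf5, another epithelial ETS factor, read 186, 184, 193 and 177 in controls and 20.0, 16.7 and 28.0 after LPS+MV, a change of -2.02 ± 0.09 (adjusted p = 1.68e-15). Cckar, a cholecystokinin receptor, read 158, 144, 193 and 152 in controls and 21.6, 24.6 and 29.3 after LPS+MV, a change of -1.75 ± 0.09 (adjusted p = 1.77e-14). In all of these the highest LPS+MV array was below the lowest control. Txnip, an inhibitor of thioredoxin and of glucose uptake, fell by 1.68, and its relative Arrdc3 by 1.29. The endothelial BMP target Tmem100 fell by 1.60 (its second probe set changed by -0.21), the hedgehog co-receptor Gas1 by 1.47, Klf2 by 1.39, Bex2 by 1.29 and the unnamed 9930012K11Rik by 1.42.

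Other FGF-ERK feedback genes moved either way. Spry4, Spred1 and Spry2, all inhibitors of the pathway, rose by 1.05, 0.82 and 0.60, Fgfr3 changed by -0.31 and passed, and Etv4 changed by -0.03 and did not. The list's median was 0.03, with 3 of 10 higher and 2 lower.

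Type 2 cell genes fell in 6 of 13 cases and rose in 1, with a median of -0.10. Those that fell serve lipid and surfactant handling or its control: the phospholipid acyltransferase Lpcat1 (-0.86), the factor Cebpa (-0.78), the lipid transporter Abca3 (-0.56), the phosphate transporter Slc34a2 (-0.56), the fatty acid synthase Fasn (-0.55) and the surfactant protease Napsa (-0.30). Lpcat1 read 2824, 2846, 2898 and 3139 in controls and 1654, 1564 and 1559 in LPS+MV lungs, without overlap (-0.86 ± 0.09, adjusted p = 2.74e-08). Sftpd, a collectin, was the gene that rose (0.31), a call lost without LPS+MV replicate 3 (0.23). The surfactant proteins Sftpa1, Sftpb and Sftpc changed by -0.10, 0.09 and -0.09 and did not pass. The Fasn call was the weakest, lost without any 1 of LPS+MV replicates 1 to 3 or control replicates 2 to 4 (-0.44 to -0.59).

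In type 1 cell genes 3 of 12 fell and 1 rose (median -0.16), and in airway genes 2 of 14 fell (median -0.04), near the 20.5% of all genes. The airway calls were the tubulin Tubb4b (-0.76, with its other probe sets at -0.05 and 0.05) and the ciliated cell gene Tppp3 (-0.63), and the growth factor Vegfa (0.39) was the type 1 gene that rose. Caveolin (Cav1), Emp2 and Rtkn2 fell with all arrays (-0.24, -0.20 and -0.39). Cav1 was lost without LPS+MV replicate 3 (-0.18), Emp2 without LPS+MV replicate 2 or 3 or control replicate 1, 2 or 4 (-0.16 to -0.21) and Rtkn2 without LPS+MV replicate 1 or 2 or control replicates 1 to 3 (-0.19 to -0.38), and Rtkn2 was -0.64 without LPS+MV replicate 3. Without LPS+MV replicate 2, control replicate 1 or control replicate 2, 1 type 1 gene fell, and without LPS+MV replicate 3, 4 airway genes fell. Ager and Aqp5, which mark type 1 cells, changed by -0.17 and -0.23 and did not pass. Of 20 endothelial genes 4 fell and none rose, again near the 20.5% of all genes, with a median of -0.26. However, 9 fell without control replicate 3 and 2 without control replicate 2. Sox17, an arterial transcription factor, fell by 0.89 and kept its call without any 1 array. The other calls were Apln (-0.47), lost without LPS+MV replicate 3 (-0.34), Calcrl (-0.34), lost without LPS+MV replicate 3 (-0.14) or control replicate 1 or 2 (-0.29 and -0.31), and Ramp2 (-0.43), lost without LPS+MV replicate 1 or 2 (-0.36 and -0.29) or control replicate 2 or 4 (-0.39 and -0.28). Matrix genes had a median of -0.22 with 3 of 21 lower, a share below the 20.5% of all genes. Only 1 was lower without replicate 3 of LPS+MV or control replicate 1 or 2. Elastin (Eln) was among the 3 at -0.50, a call lost without LPS+MV replicate 3 (-0.28) and without control replicates 1, 2 or 4 (-0.40 to -0.50). The elastic fibre genes Loxl1 and Fbln5 were at -0.36 and -0.41, and Fbln5 was lost without LPS+MV replicate 3 (-0.31) or control replicate 1 or 2 (-0.34 and -0.37). The chloride channel Cftr and the claudin Cldn4 rose by 0.97 and 0.43, the Cldn4 call being lost without LPS+MV replicate 2 (0.22, adjusted p = 0.051).

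Cell cycle genes fell in 15 of 23 cases, with none higher and a median of -0.62. This count depended on single arrays: it was 7 without control replicate 1, 4 without LPS+MV replicate 3, 20 without control replicate 4, and 2 in a fit of the compared groups only. The list's mean level was 8.29, 7.53, 7.36 and 6.84 on the control arrays and 7.06, 7.00 and 6.56 on the LPS+MV arrays, so the groups overlapped. Among those that fell, the replication helicase subunit Mcm6 read 445, 260.5, 281 and 180.0 in controls and 133, 124 and 99.2 after LPS+MV, a change of -1.05 ± 0.16 (adjusted p = 1.86e-05).

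Glucocorticoid receptor targets were mixed. Cebpd and Cebpb, which inflammatory signals also induce, rose by 2.76 and 1.13, Map3k6 rose by 0.85, Tsc22d3 (GILZ) fell by 0.89 and Ddit4 fell by 1.15, and Fkbp5 changed by 0.61 without passing. Of 13 genes 3 rose and 2 fell (median 0.07). Without control replicate 4, which had the highest mean of the list among controls (9.65 against 8.36 to 8.96), 5 rose, 1 fell and the median was 0.35. The Ddit4 call was lost without that array (-0.70, adjusted p = 0.067) and without LPS+MV replicate 1 or 2 (-0.97 and -0.93), and that of Map3k6 without LPS+MV replicate 3 (0.61) or control replicate 3 (0.58).

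Probe sets of 1 gene did not always agree. Of 120 listed or named genes that passed against control and had several probe sets, 44 had another probe set whose change was much smaller (ratio below 0.33, a limit chosen after these values were seen) or of opposite sign. The sign was opposite for 5, namely Tubb4b, Cldn18 (0.04), Emp2 (0.08), Mcm3 (0.04) and Rora (-0.01). The weakest other probe set of Cxcl12 changed by -0.01 and that of Calcrl by -0.0005, and those of Cebpd, Ptger4, Csf1 and Stat3 by 0.47, 0.34, 0.27 and 0.07.

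To see what ventilation added to LPS, LPS+MV lungs were compared with juvenile LPS lungs, which share the LPS+MV arrays with the comparison above. In this contrast 2019 genes (15.4%) passed, 782 (5.97%) higher and 1237 (9.45%) lower in LPS+MV lungs, with a median over all genes of -0.02. The count was 1277 without replicate 3 of LPS+MV, 1132 with the Xist pattern (high on none of the LPS arrays and 2 of the 3 LPS+MV arrays) as a term, and 1324 in a fit of the compared groups only. The groups did not overlap in 26% of genes. Cxcl10 read 4609, 2831, 5109 and 5319 on the LPS arrays and differed by -0.02 ± 0.24 (adjusted p = 0.97), and Cxcl1 read 2044, 1823, 1869 and 1605 and differed by 0.21 ± 0.21 (adjusted p = 0.56), and neither difference passed.

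Il6 was higher in LPS+MV than in LPS lungs. The LPS arrays read 175, 66.0, 206 and 274 and the LPS+MV arrays 439.6, 854 and 2462, a difference of 2.37 ± 0.40 (adjusted p = 2.04e-04) with no overlap. Tnfsf9 and Csf3 also rose over LPS alone, by 1.98 and 1.21, as did Zfp36 (1.78) and the urokinase receptor Plaur (1.22). Ngp, a secondary granule protein of neutrophils, read 73.6, 73.7, 62.0 and 51.8 on the LPS arrays and 793, 459.7 and 654 on the LPS+MV arrays, a difference of 2.75 ± 0.54 (adjusted p = 9.42e-04). Neutrophil markers had a median difference of 0.84, with 5 of 14 higher. The count was 2 without LPS+MV replicate 3 and 3 without any other single array of these groups. Their mean level was 8.28 to 8.35 on the LPS arrays. Of immediate early genes, 15 of 31 were higher (median 0.59), and 5 were higher and 1 lower without replicate 3 of LPS+MV (median 0.33), and 9 were higher without LPS replicate 3.

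The 6 highest genes also held Hspa1b, Hspa1a, Xist and G530011O06Rik. Hspa1b and Hspa1a differed by 2.87 and 2.86, and without replicate 3 of LPS+MV by 1.94 (adjusted p = 0.19) and 1.73 (adjusted p = 0.25). G530011O06Rik, which the RefSeq table places on both X and Y, read 129.7, 59.0, 88.8 and 79.1 on the LPS arrays and 478, 527 and 811 on the LPS+MV arrays, a difference of 2.39 that was 2.31 with Xist as a term. Xist was below 100 on all 4 LPS arrays and above it on 2 of the 3 LPS+MV arrays, and its difference was 2.60, a call lost without any 1 of the LPS arrays (2.59 to 2.62) or without LPS+MV replicate 2 or 3 (1.98 and 1.93). With its own pattern as a term it was 0.22. The Hspa1a and Hspa1b calls were also lost without LPS replicate 2 (2.84 and 2.75), and that of Hspa1a without LPS replicate 3 or 4 (2.85 and 2.78).

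The genes lowest in LPS+MV relative to LPS lungs were Slc26a4, Orm1, Txnip, Noxo1, Il33 and Armcx4. Against control, Slc26a4, Noxo1 and Il33 were still higher in LPS+MV lungs, by 2.28, 0.83 and 0.79. Txnip and Armcx4 were lower than in controls (-1.68 and -0.64), and Orm1 did not pass (0.17). Slc26a4 (pendrin), an anion exchanger of airway epithelium, read 1109, 749, 1172 and 1003 on the LPS arrays and 242, 269 and 230.1 on the LPS+MV arrays, a difference of -1.88 ± 0.16 (adjusted p = 1.91e-08). The acute phase protein Orm1 read 101, 154, 147 and 118 and then 17.0, 25.4 and 19.5 in the same order, a difference of -1.61 ± 0.21 (adjusted p = 1.09e-05). In both the groups were separate. Txnip, the oxidase organizer Noxo1, the alarmin Il33 and Armcx4 were lower than in LPS lungs by 1.31, 1.27, 1.13 and 1.11. For Armcx4 the difference was -0.73 without LPS+MV replicate 3 and still passed. Of 17 acute phase genes 8 were lower and none higher (median -0.56), and of 28 interferon-stimulated genes 6 were lower and none higher (median -0.42), with 12 lower without LPS replicate 2 and 3 without LPS replicate 3, LPS replicate 4 or LPS+MV replicate 1. Of 13 type 2 cell genes 5 were lower and none higher (median -0.20), namely Slc34a2 (-0.59), Lpcat1 (-0.45), Napsa (-0.29), Sftpd (-0.25) and Sftpa1 (-0.22). The count was 3 without LPS replicate 2 or LPS+MV replicate 1 or 2, where Napsa (-0.25 to -0.27) and Sftpd (-0.20 to -0.26) did not pass. Napsa was also lost without LPS replicate 1 (-0.26) and Sftpd without LPS replicate 3 or 4 (-0.24 and -0.22). In airway genes 2 of 14 were lower (median -0.05), Tubb4b at -0.85 and Tppp3 at -0.44, the latter being lost without LPS+MV replicate 1 or 2 (-0.41 and -0.35). Etv5 differed by -0.70 ± 0.10 (adjusted p = 2.59e-05), with the LPS arrays at 132, 153, 121 and 130.5.

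To see what LPS added to ventilation, LPS+MV lungs were compared with juvenile MV lungs. Here 1925 genes (14.7%) passed, 907 (6.93%) higher and 1018 (7.78%) lower, with a median of -0.03 and no overlap in 29.8% of genes. Same-numbered arrays of these groups deviated together, and with the replicate number as a block 2133 genes passed over all groups and 1250 in a fit of these arrays only. Chemokine, NF-kB and interferon-stimulated genes were higher than in ventilated lungs. Cxcl10 read 24.9, 78.3 and 22.6 on the MV arrays, a difference of 5.94 ± 0.26 (adjusted p = 6.76e-16), and Cxcl2, Cxcl1, Saa3, Cxcl5 and Ccl20 differed by 5.15, 5.13, 4.82, 4.14 and 4.06. All 16 NF-kB genes (median 1.87) and 24 of 28 interferon-stimulated genes (median 1.06) were higher.

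The granule gene Ngp read 321, 243 and 252 on the MV arrays and the difference of 1.11 ± 0.57 did not pass (adjusted p = 0.21). Immediate early genes were higher in 15 of 31 cases and lower in 2 (median 0.52), with 4 lower and a median of 0.23 without LPS+MV replicate 3. The lowest genes against MV were Elf5, Etv5, Dbp, Arrdc3, G0s2 and Snai2, with differences of -2.04, -1.97, -1.94, -1.78, -1.70 and -1.68. Etv5 read 358, 426 and 327 on the MV arrays, all above the LPS+MV arrays. For the clock output gene Dbp the call was lost in the block fit of these arrays (-1.94, adjusted p = 0.24) and without LPS+MV replicate 1 or 2 (-1.46 and -1.52) or MV replicate 1 or 2 (-1.64 and -1.56). Both MV and LPS+MV replicate 3 were high in heat shock genes, with a list mean of 11.59 and 10.92, and without this pair 9 clock genes were lower and 4 higher instead of 3 and 1 of 16, and Dbp differed by -3.52. Without LPS+MV replicate 1 or 2 or MV replicate 1 or 2 alone no clock gene was lower, and without LPS+MV replicate 3 alone 9 were.

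The response to LPS+MV was set against the same treatment in adults, as the juvenile change minus the adult change. Fewer genes passed than in the other comparisons: 275 (2.1%), 163 (1.25%) with a more positive change in juveniles and 112 (0.856%) with a more negative one. The median was 0.00. Before adjustment, 2458 genes had a p below 0.05 in this limma test, so a gene that did not pass is not shown to respond alike at both ages. The count of 275 ranged from 95 without juvenile control replicate 1 to 1136 without juvenile control replicate 4. The leading chemokines did not differ past the test, with Cxcl10 at 1.18 ± 0.33 (adjusted p = 0.055) and Cxcl1 at -0.65 ± 0.29 (adjusted p = 0.21), but Cxcl3 rose less in juveniles (-1.12 ± 0.21, adjusted p = 0.0061) and 4 of 28 interferon-stimulated genes rose more (Ifit3 by 1.41, Ifit1 by 1.26, Ifit2 by 1.05 and Usp18 by 0.95). Of these the Ifit3 call was kept with any 1 array left out, Ifit1 was lost without juvenile LPS+MV replicate 3 (1.14) or juvenile control replicate 1 (1.17), Ifit2 without any of 5 arrays (0.88 to 1.03) and Usp18 without any of 11 (0.78 to 0.98).

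The largest positive differences were those of Ngp, Ifitm6, Ccr2, F13a1, Camp and Plac8, at 2.85, 2.58, 2.09, 1.96, 1.74 and 1.53. In juveniles alone, Ngp, Ifitm6, Camp and Plac8 rose against control by 2.81, 1.89, 1.53 and 0.87. The juvenile changes of Ccr2 and F13a1, 0.85 and 0.77, did not pass. Ngp read 45.0, 29.5, 171 and 485 on the adult control arrays and 64.3, 99.8, 108 and 219 on the adult LPS+MV arrays. The adult groups overlapped, and adult controls 3 and 4 were high in the whole neutrophil list (means of 8.79 and 9.22 against 7.69 and 7.34). Most members of the neutrophil and the monocyte and macrophage lists did not differ past the test. Of 14 neutrophil markers 2 passed, Ngp and Camp (median 0.63), and of 19 monocyte and macrophage markers 3 passed, Ccr2, F13a1 and Cx3cr1 (0.69), with a median of 0.06. All of these calls were more positive in juveniles, a direction in which only 1.25% of all genes passed, and the median over all genes was 0.00. The neutrophil count was 1 without any 1 of 10 arrays and 3 without juvenile control replicate 4, the monocyte and macrophage count was 1 without any 1 of 8 arrays and at most 4, and Cx3cr1 did not pass without any of 10 arrays (0.61 to 0.69). The largest negative differences were Zbtb16, Pdk4, Fam107a, Npr3, Cxcl3 and Angptl4, at -2.06, -1.77, -1.69, -1.21, -1.12 and -1.09. In juveniles alone, Cxcl3 rose against control by 3.61, and the others did not pass (-0.08 to 0.22). Zbtb16, a glucocorticoid-induced factor, read 535, 421, 444 and 1065 on the juvenile controls, 559, 624 and 626 on juvenile LPS+MV, 164, 75.1, 112 and 63.4 on adult controls and 670.0, 727, 330.4 and 519.8 on adult LPS+MV arrays. Adult LPS+MV arrays were all above adult controls, and juvenile LPS+MV arrays lay within the range of juvenile controls. The calls of Camp, F13a1, Zbtb16 and Cxcl3 were kept with any 1 array left out, although F13a1 did not pass in a fit of the compared groups only (1.96, adjusted p = 0.074). Those of the other genes were lost without at least 1 array, and the highest adjusted p so reached was 0.083 for Ngp, 0.051 for Ifitm6, 0.087 for Ccr2, 0.09 for Plac8, 0.066 for Pdk4, 0.08 for Fam107a, 0.094 for Npr3 and 0.07 for Angptl4.

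**Figure D5:**
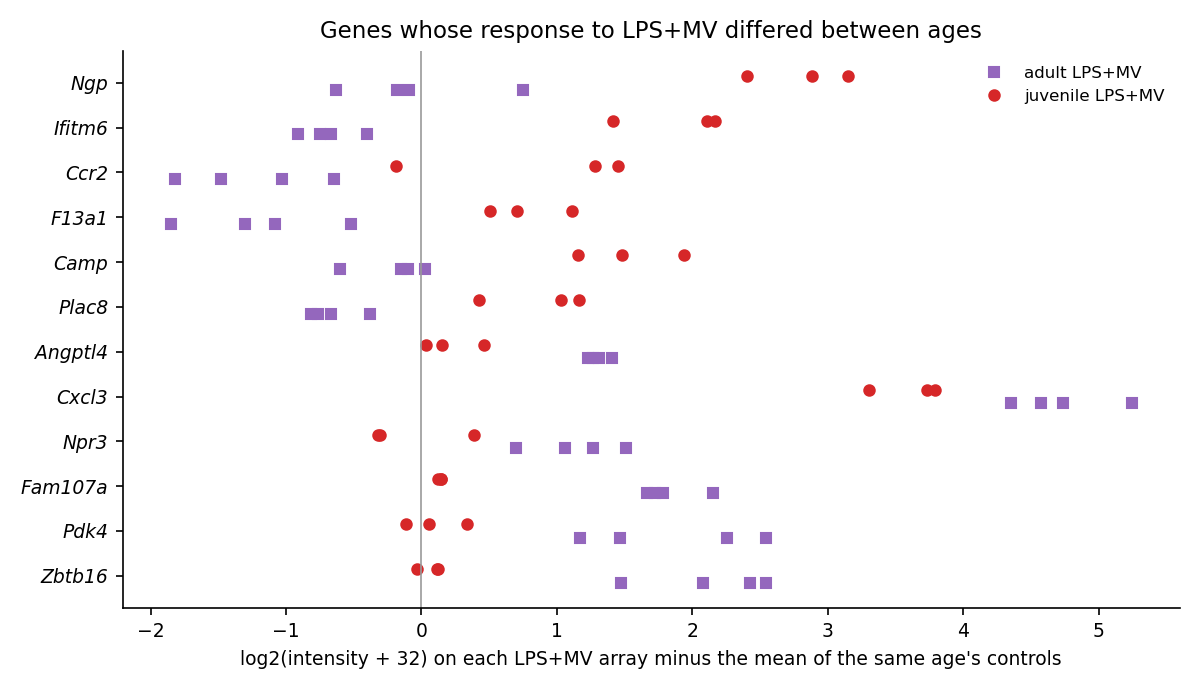
Log2 change of each LPS+MV array from the mean of the controls of the same age, for 12 genes (red circles, 3 juvenile arrays; purple squares, 4 adult arrays). All juvenile arrays lie above all adult arrays for Ngp, Ccr2 and F13a1 and below them for Zbtb16 and Pdk4.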

How the data were processed

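RNA of whole mouse lung was hybridised to Affymetrix Mouse 430 2.0 arrays. The deposited values are linear probe set intensities, already comparable between arrays (medians of 21.6 to 22.8); per the submitters' processing notes MAS5 was the tool, and its settings and scaling are not given in the sources used here. Depth does not apply, and precision is limited by 3 and 4 arrays per group. Of 45037 probe sets, 34945 had 1 gene symbol, 932 several and 9160 none in the platform annotation. Probe sets above their array's median on at least 3 arrays were kept, and the one with the highest mean stood for its gene, which left 13089 genes of 18193.

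log2(intensity + 32) was fitted with limma 3.58.1 in R 4.3.3 (lmFit, eBayes with trend) over all 8 groups and 30 arrays, so that they share 1 estimate of spread (22 residual degrees of freedom). Nothing in the labels says whether animals shared a litter or day, and sex is not among them. P-values were adjusted by Benjamini-Hochberg within each comparison at 0.05. The script was tested on simulated data. The comparisons share the LPS+MV arrays. Named genes are the 15 highest and 10 lowest against control that passed with separate groups, the 6 highest and 6 lowest of each other comparison, up to 4 members of each list by p, and other members where a role is described. Members and lists were chosen with earlier results of these data known.

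Same-numbered arrays of LPS+MV and MV deviated together (correlations of 0.118, 0.208 and 0.327), which was taken as pairing, although no label states it. Between juvenile and adult controls, not taken as paired, the correlations were 0.257, 0.136, -0.047 and 0.225. Against control the correlations were 0.257, -0.115 and -0.217, and against LPS -0.081, -0.129 and -0.038. Alternatives were a fit without the filter, a pseudocount of 1, averaging a gene's probe sets, quantile normalization, a constant prior spread, array weights, Xist as a term, a fit of the compared groups only, a replicate block and leaving out each array. A replicate block within the MV and LPS+MV arrays and a fit without both arrays high in heat shock genes were added after the data were seen. Figures were drawn with matplotlib 3.10.9.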

Additional observations from a re-analysis of the deposited data

Results flagged for a closer look

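Responses to LPS+MV that differed between juvenile and adult lungs, by the limma test of the difference, are listed as the juvenile minus the adult log2 change. More positive in juveniles were Ngp at 2.85, Ifitm6 at 2.58, Ccr2 at 2.09, F13a1 at 1.96, Camp at 1.74 and Plac8 at 1.53. More negative in juveniles were Zbtb16 at -2.06, Pdk4 at -1.77, Fam107a at -1.69, Npr3 at -1.21, Cxcl3 at -1.12 and Angptl4 at -1.09. The adult controls with the high neutrophil list means, replicates 3 and 4, enter the first set, and their part in it was not tested beyond leaving out each array: Ngp was 2.25 without adult control replicate 4.

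Among juvenile controls, replicate 2 was highest in the mean of the FGF-ERK feedback genes, with a gap of 0.932 of the group's range. That range was small, from 8.14 to 8.28 on the log2 scale. Replicate 1 was highest in the mean of the cardiac muscle genes, with a gap of 0.903 of a range from 8.53 to 8.94. Both exceed 0.829, Dixon's 95% value for 4 samples. Chance gives about 1 such array in 20 groups, and 61 values were examined in all.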

How the results depend on the processing

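No named gene that passed in the main fit reversed its sign in any alternative. Reversals were not counted for named genes that did not pass. The 25 genes named as highest or lowest against control kept their calls in all alternatives. The counts moved more. Fitting only the compared groups, which leaves fewer arrays for the spread, gave 2659 genes against control, 1324 against LPS, 1045 against MV (57.7% of them higher, instead of 47.1%) and 71 for the difference between ages (76.1% higher, instead of 59.3%). Array weights gave 3433 against LPS, 4724 against MV (35.0% higher) and 1723 between ages (49.2% higher), and Xist as a term gave 1132 against LPS. The cause was not tested. Leaving out 1 array gave 3286 to 4278 genes against control, 1277 to 1769 against LPS, 1320 to 2161 against MV and 95 to 1136 between ages. Between ages the count was 464 without adult control replicate 1, 143 and 160 without adult control replicates 3 and 4, 171 without adult LPS+MV replicate 3, and 167 without juvenile LPS+MV replicate 3 or juvenile control replicate 2.

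With the replicate number as a block over all groups the counts were 4218 against control, 2153 against LPS, 2133 against MV and 418 between ages. The block within the MV and LPS+MV arrays, chosen after seeing the data, gave 1250 against MV. No label pairs same-numbered arrays, and for MV and LPS+MV the pairing was assumed from their correlations alone.

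Of 1428 calls of named genes with 1 array left out, 132 were lost and 13 gained, and of 1752 under the other alternatives 68 were lost and 19 gained. The list medians against control moved by more than the spread between arrays in 18 of 252 cases with 1 array left out. Dim genes near an intensity of 32 have understated changes on the scale used.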

Other observations

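The endoplasmic reticulum chaperone network did not rise as a group against control. Of 15 genes of the unfolded protein and integrated stress responses, 3 were higher and 3 lower, with a median of -0.10, and 1 was lower without LPS+MV replicate 3 or control replicate 2. Those lower were the secreted or luminal proteins Manf (-0.44), Creld2 (-0.52) and Sdf2l1 (-0.43), and Manf did not pass without LPS+MV replicate 2 or 3 or control replicate 1 or 2 (-0.32 to -0.42), nor Sdf2l1 without LPS+MV replicate 3 or control replicate 2 or 3 (-0.28 to -0.43). The splicing-activated factor Xbp1 was higher at 0.46, as were the asparagine synthetase Asns (0.33) and Atf4 (0.56, lost at 0.40 without LPS+MV replicate 3). The chaperone Hspa5 (BiP) changed by -0.10 and did not pass.

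Antigen presentation, stroma and blood gave few calls, to be read against 10.8% of all genes higher and 20.5% lower. Among 9 MHC class II genes the median was 0.15 with 1 higher, the invariant chain Cd74 at 0.28, a call lost without LPS+MV replicate 3 (0.18). Mesenchymal genes had a median of -0.12, with Pdgfra higher (0.57) and the fibroblast ligand Wnt2 lower (-0.50, lost at -0.38 without control replicate 3). In tight junction and fluid transport genes 4 of 15 were higher and 2 lower (median -0.02), the latter being Aqp1 (-0.39) and Cldn18 (-0.30), and neither was lower without LPS+MV replicate 1 or 2 or control replicate 1 or 4 (-0.32 to -0.39 and -0.22 to -0.30), nor Aqp1 without control replicate 2 (-0.35). Cldn4, Cldn7, Atp1b1 and Cftr were the higher ones, at 0.43, 0.35, 0.42 and 0.97, and Cldn4 was lost at 0.22 without LPS+MV replicate 2. Of 7 red cell and haem genes 1 was lower (median -0.47), the haem enzyme Fech at -0.63, lost without LPS+MV replicate 3 or control replicate 3 or 4 (-0.43 to -0.56). No cardiac gene of 12 passed (median -0.14), and the 3 tested thymocyte genes were below 32 on all 7 arrays.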
